A study of Mus musculus with 4 samples.

Results

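The interferon-inducible guanylate-binding proteins (GBPs) and immunity-related GTPases (IRGs) were examined in CD4 T cells with and without ectopic Tox. The 10 genes were *Gbp2*, *Gbp3*, *Gbp4*, *Gbp5*, *Gbp7* and *Gbp9* of the GBPs and *Igtp*, *Irgm1*, *Irgm2* and *Iigp1* of the IRGs, picked by symbol from 24369 listed genes. The family was taken up with earlier results of the same comparison known, *Gbp5* being among the genes that passed in DESeq2. The difference between Tox RV and EV RV is therefore given for these genes as a description, without a test. A further 19 genes of the same families were listed and are given as the surrounding family.

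Naïve CD4 T cells from the spleens of wild-type C57BL/6 mice were activated without polarizing cytokines, using anti-CD3 bound to the plate, anti-CD28 in solution and human IL-2. On day 2 the EV RV group received MSCV-IRES-eGFP, the empty retroviral vector, and the Tox RV group received MSCV-Tox-IRES-eGFP, which adds a Tox transgene driven by the viral promoter. After 5 days both groups were restimulated for 5 h and sorted as CD4+ GFP+ cells for bulk RNA-seq. Each group had 2 libraries from 2 individual mice. The restimulation is given as biotinylated anti-CD3 with streptavidin in one place and as anti-CD3 with anti-CD28 in another, and the age and sex of the mice were not given in the sources used here. GFP marks transduced cells in both groups, so all 4 libraries came from virus-exposed, activated cells and no untransduced or unstimulated control was analysed here.

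GBPs and IRGs are GTPases that cells make in response to interferons, above all interferon-γ. Interferon-γ binds a receptor made of Ifngr1 and Ifngr2, the kinases Jak1 and Jak2 pass the signal on, and the transcription factors it activates bind GAS and ISRE elements in target promoters, Irf1 among those that bind ISRE elements. The proteins gather on the vacuoles of intracellular bacteria and parasites, where IRGs of the effector (GKS) type such as Iigp1 damage the membrane, and the regulatory (GMS) proteins Irgm1, Irgm2 and Igtp (also called Irgm3) keep the effectors off the cell's own membranes. In T cells, Irgm1 is also known for a role in survival after activation.

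Promoter sequences are shown for 6 members to give the place of letters that match ISRE or GAS elements. Whether interferon signals act through these matches was not tested. *Gbp3* also had ISRE matches, and its sequence is not printed here. The RefSeq promoter table (GRCm38.p6) held 7 of the 10 members, and the promoters span 250 bases before to 50 bases after the annotated start. Each line runs 5′ to 3′ in the direction of the gene, from 170 to 11 bases upstream of the start, with ISRE and GAS matches in capitals. The ISRE search was for GAAA followed after 2 free bases by GAAA, on both strands, and the GAS search was for TTCNNNGAA, which reads the same on both strands. The windows lie at chr3:142496764-142496923 for *Gbp5*, chr3:142530166-142530325 for *Gbp7*, chr3:142620493-142620652 for *Gbp2*, chr11:58199386-58199545 for *Igtp* and chr11:58214807-58214966 for *Irgm2*, all on the plus strand, and at chr11:48871431-48871590 on the minus strand for *Irgm1*.
Gbp5: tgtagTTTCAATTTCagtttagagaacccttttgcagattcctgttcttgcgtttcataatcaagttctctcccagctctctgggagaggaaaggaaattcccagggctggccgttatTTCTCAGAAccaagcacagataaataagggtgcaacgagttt
Gbp7: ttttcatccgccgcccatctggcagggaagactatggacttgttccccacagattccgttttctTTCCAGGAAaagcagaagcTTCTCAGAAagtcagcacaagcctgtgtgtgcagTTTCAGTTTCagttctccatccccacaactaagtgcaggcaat
Gbp2: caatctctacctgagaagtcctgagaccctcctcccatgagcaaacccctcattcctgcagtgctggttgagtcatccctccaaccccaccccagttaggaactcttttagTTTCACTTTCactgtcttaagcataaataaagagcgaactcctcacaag
Igtp: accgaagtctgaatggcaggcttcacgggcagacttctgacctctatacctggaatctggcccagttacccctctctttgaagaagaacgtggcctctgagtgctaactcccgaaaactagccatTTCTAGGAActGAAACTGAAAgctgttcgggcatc
Irgm2: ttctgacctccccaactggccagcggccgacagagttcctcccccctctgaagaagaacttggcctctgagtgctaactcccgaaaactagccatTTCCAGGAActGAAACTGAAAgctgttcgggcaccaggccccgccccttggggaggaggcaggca
Irgm1: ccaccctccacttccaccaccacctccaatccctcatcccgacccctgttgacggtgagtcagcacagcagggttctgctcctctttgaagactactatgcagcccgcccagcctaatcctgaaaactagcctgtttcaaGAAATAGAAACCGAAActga

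An ISRE match lay upstream of the start in a promoter of each of the 7 members, against 3.44% of the 32851 promoters in the table. That share counts promoters, not genes. *Gbp3* had a further promoter in the table, which held no ISRE, GAS or AP-1 match. In *Gbp2*, *Gbp3*, *Gbp5* and *Gbp7* the match was on the opposite strand, read as TTTC repeats, and in *Irgm1*, *Igtp* and *Irgm2* it was on the strand of the gene. It began 165 bases upstream of the start in *Gbp5* and between 34 and 64 bases upstream in *Gbp2*, *Gbp7*, *Igtp* and *Irgm2*. *Gbp3* and *Irgm1* each had a pair of matches that overlapped, so their GAAA words form a triplet. A GAS match was found in *Gbp5*, *Gbp7*, *Igtp* and *Irgm2*, against 8.30% of all promoters. In *Igtp* and *Irgm2* the GAS match was followed after 2 bases by the ISRE match, and the same spacing was found in *Tgtp1* and *Tgtp2*, further IRG genes. At most 2 bases between a GAS and an ISRE match occurred in 8 of the 32851 promoters (0.0243%). An AP-1 match (TGANTCA) was found in *Gbp2* and *Irgm1*, against 7.81% of all promoters. The matches describe the letters in these windows and do not show binding.

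**Figure D1:**
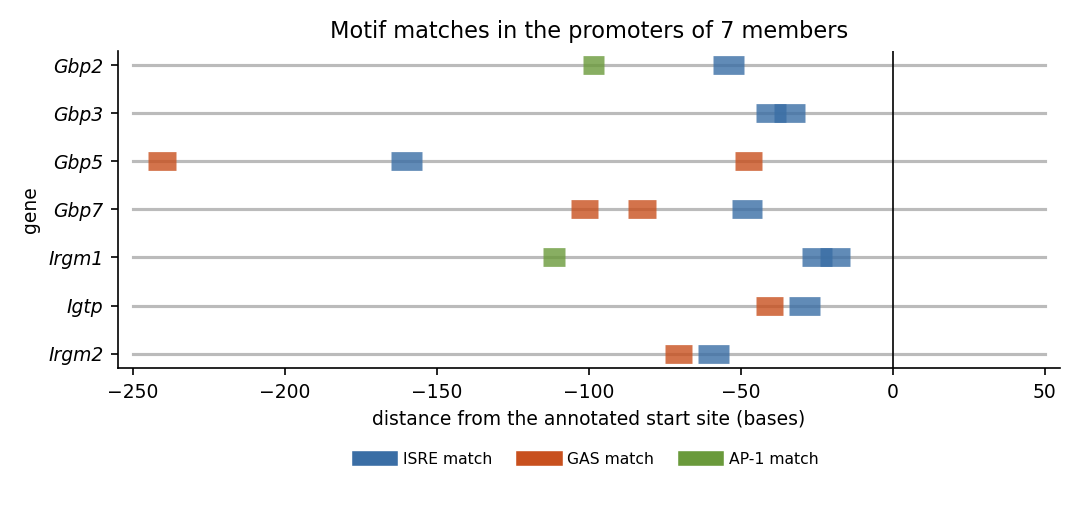
Positions of ISRE, GAS and AP-1 matches in the promoters of 7 GBP and IRG genes, with the distance from the annotated start in bases on the x axis and 1 gene per line. ISRE matches (blue) are present in all 7 genes, and in Igtp and Irgm2 the GAS match (orange) ends 2 bases before the ISRE match.

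The 4 libraries held between 46989997 and 74548723 expected counts, of which *Rn45s*, the ribosomal RNA precursor, took 24.7% in EV RV replicate 1, 11.97% in EV RV replicate 2 and 7.14% to 10.3% with Tox. That library also stood apart on the first principal component, at -53.8 against 5.70 to 25.8 for the others. *Tox* was at 11.7 and 5.73 CPM (counts relative to the library total, scaled by TMM) with the empty vector and at 121 and 99.9 CPM with the Tox vector, as the labels say. Of 8 CD4 T cell markers, 5 had a log2 fold change above 0 and 3 below, with *Cd4* at 324 to 479 CPM (0.38 ± 0.18) and *Cd3e* at 219 CPM in EV RV replicate 1 against 71.6 to 91.2 CPM elsewhere (-0.84 ± 0.50). Across all genes, edgeR's quasi-likelihood test called 0 of 14143 (0%) at an adjusted p-value under 0.05 and a fold above 2, with 512 at an unadjusted p-value under 0.05, and DESeq2 called 22. *Tox* itself, at a log2 fold change of 3.68 ± 0.38, was not called by edgeR (adjusted p-value 0.490). A gene that edgeR did not call is therefore not shown to be unchanged.

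All 10 GBP and IRG genes were lower in Tox RV than in EV RV, with log2 fold changes from -1.21 for *Gbp5* to -0.13 for *Gbp9* and a median of -0.37, where the median of all genes tested was 0.0036. In 9 of the 10 the groups did not overlap, each Tox RV library being below each EV RV library, a position that 17.4% of all tested genes held, and *Iigp1* was the exception in CPM but not in TPM. Since the family was chosen on this comparison, nothing is read from these counts. The TPM of the 10 genes (transcripts relative to the library total, corrected for length) summed to 2344 and 2162 in EV RV replicates 1 and 2 and to 1534 and 1646 in Tox RV replicates 1 and 2. Without EV RV replicate 1, all 10 had both Tox RV libraries below the remaining EV RV library, as did 33.5% of all genes, and the median was -0.32. In bulk RNA, fewer cells expressing a gene and less RNA per cell cannot be told apart.

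The genes were well expressed in these T cells. By mean TPM in EV RV, *Gbp2* stood at 644 ± 152 (SD, n = 2) and *Igtp* at 629 ± 6.41, and this pair did not differ beyond its spread. *Irgm1* (256 ± 10.6) and *Iigp1* (238 ± 71.0) followed, also within their spread, and then *Gbp4* at 169 ± 1.63. *Gbp5* (78.5 ± 31.6), *Irgm2* (76.8 ± 10.3) and *Gbp7* (70.2 ± 3.42) overlapped in level. *Gbp3* (58.1 ± 6.75) lay below *Irgm2* and *Gbp7* but within the spread of *Gbp5*, and *Gbp9* (34.3 ± 1.56) was lowest. In EV RV the least abundant member lay at percentile 75.7 and the most abundant at percentile 98.8 of all genes tested. In Tox RV *Igtp* (451 ± 24.1) and *Gbp2* (423 ± 2.19) exchanged places, and *Gbp5* moved from rank 6 to rank 9 of the 10, at 31.8 ± 1.30 TPM.

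**Figure D2:**
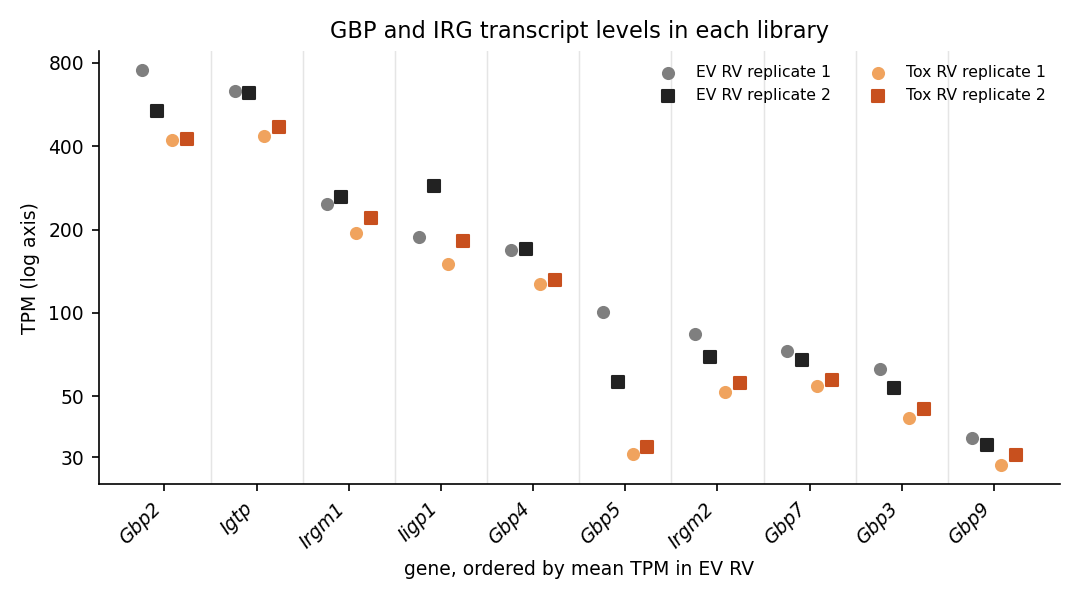
TPM (log axis) of the 10 GBP and IRG genes in each of the 4 libraries, with genes ordered by mean TPM in EV RV and each point 1 library. The Tox RV points (orange) lie below the EV RV points (grey and black) in all 10 genes on this scale, narrowly in Iigp1, and the EV RV pair is widest in Gbp5 and Iigp1.

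Among the GBPs, *Gbp5* differed most. *Gbp5*, which promotes inflammasome assembly in macrophages, is located at chr3:142496934-142522344 on the plus strand (GRCm38.p6), at one end of a gene cluster that also holds *Gbp7*, *Gbp3*, *Gbp2b* and *Gbp2*. EV RV replicates 1 and 2 held 173 and 102 CPM, while Tox RV replicates 1 and 2 held 57.7 and 61.0 CPM. Both EV RV libraries were higher than either Tox RV library, but they differed from each other by 0.77 on the log2 scale. The log2 fold change was -1.21 ± 0.28 (SE), or 2.32-fold more in EV RV. Without EV RV replicate 1 it was -0.78, and without any 1 library it ranged from -1.54 to -0.78. *Gbp5* was the single member called by DESeq2 (adjusted p-value 0.0378), a call that 0.0605% of genes tested there received in this direction and that belongs to the values the family was chosen on.

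*Gbp2*, the most abundant GBP, is located at chr3:142620663-142638008 at the other end of this cluster. It was at 1044 and 785 CPM in EV RV and at 637 and 641 CPM in Tox RV. The Tox RV libraries were nearly equal and both lay below EV RV, with a log2 fold change of -0.52 ± 0.20 that was -0.30 without EV RV replicate 1. Its neighbour *Gbp2b* was near the detection floor, at 0.14 to 0.50 CPM. *Gbp7* (chr3:142530336-142550151) and *Gbp3* (chr3:142560016-142573213) lie between these genes. *Gbp7* was at 237 and 233 CPM in EV RV and at 194 and 203 CPM in Tox RV, and *Gbp3* at 92.5 and 82.5 CPM in EV RV and 66.5 and 71.7 CPM in Tox RV. The groups did not overlap in either gene, and the log2 fold changes were -0.25 ± 0.16 and -0.34 ± 0.17.

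The second GBP cluster, on chromosome 5, holds *Gbp9* (chr5:105076464-105110357) and *Gbp4* (chr5:105115767-105139586), both on the minus strand. *Gbp4* was at 438 and 466 CPM in EV RV and at 359 and 370 CPM in Tox RV (log2 fold change -0.31 ± 0.16). *Gbp9* was at 73.7 and 72.7 CPM in EV RV and at 64.0 and 69.6 CPM in Tox RV. This was the smallest difference of the 10, at -0.13 ± 0.16, less than its standard error, and -0.079 without Tox RV replicate 1. The transcripts of this cluster are alike in sequence, with 84.4% identity between *Gbp4* and *Gbp9* over 4474 bases and 91.4% between *Gbp4* and *Gbp6* over 1562 bases, so the division of reads among them rests on the model of RSEM. *Gbp6* (427 and 447 CPM in EV RV, 355 and 349 CPM in Tox RV) had the same log2 fold change as *Gbp4*, -0.31.

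Among the IRGs, the regulatory *Igtp* (chr11:58199556-58207592, plus strand) had the closest EV RV replicates. It was at 726 and 753 CPM in EV RV and at 540 and 582 CPM in Tox RV. All 4 values were tightly grouped, EV RV above Tox RV, and the log2 fold change of -0.40 ± 0.16 stayed between -0.45 and -0.35 with any 1 library left out. *Iigp1* (Irga6), the effector IRG of the 10, located at chr18:60373616-60392634, was at 322 and 516 CPM in EV RV and at 278 and 336 CPM in Tox RV. Here the groups overlapped in CPM, since Tox RV replicate 2 exceeded EV RV replicate 1. In TPM they did not, at 187 and 288 with the empty vector against 150 and 181 with Tox. Its log2 fold change of -0.45 ± 0.27 became -0.063 when EV RV replicate 2 was left out.

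*Irgm1*, also regulatory (chr11:48865245-48871420, minus strand) was at 309 and 344 CPM in EV RV and at 262 and 296 CPM in Tox RV, with a log2 fold change of -0.23 ± 0.17 that was -0.14 without EV RV replicate 2 and -0.15 without Tox RV replicate 1. *Irgm2* (chr11:58214977-58222783), which lies next to *Igtp*, was at 171 and 148 CPM in EV RV and at 114 and 123 CPM in Tox RV, with a log2 fold change of -0.43 ± 0.17. Neither gene overlapped between groups, and the gap of *Irgm1* was the narrower. Over the GBPs the median log2 fold change was -0.32 and over the IRGs -0.41.

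The surrounding family behaved alike in direction. All 19 further genes had a log2 fold change below 0, with a median of -0.37, and in 13 of them the Tox RV pair was wholly below the EV RV pair (17.4% of all genes). None of the 19 had the Tox RV pair wholly above the EV RV pair, against 18.6% of all genes. Without EV RV replicate 1, 18 of 19 were below 0, *Gbp2b* being the exception at 0.36, and without EV RV replicate 2 *Tgtp1* was the exception at 0.10. These values come from the comparison on which the family was chosen and share its libraries, and none of the 19 was called by edgeR or DESeq2.

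Of the other GBPs, *Gbp11*, annotated as a transcribed pseudogene, was at 23.3 and 25.7 CPM in EV RV and at 13.5 and 14.1 CPM in Tox RV (log2 fold change -0.83 ± 0.18). *Gbp10* (-0.57 ± 0.18) and *Gbp8* (-0.20 ± 0.17) had both Tox RV libraries below EV RV, and *Gbp2b* overlapped (-0.62 ± 0.77). Among the other IRGs, *F830016B08Rik* was at 67.7 and 83.4 CPM in EV RV and at 35.5 and 43.8 CPM in Tox RV, the lowest log2 fold change of the 19 at -0.93 ± 0.20. Its neighbours *Gm4951* (-0.69 ± 0.30) and *Gm4841* (-0.63 ± 0.25), near *Iigp1*, also did not overlap. *Tgtp1* was at 486 and 678 CPM in EV RV and at 461 and 578 CPM in Tox RV and overlapped (-0.16 ± 0.23), as did *Tgtp2* (-0.16 ± 0.18).

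*Ifi47* (-0.24 ± 0.16) and *Gm12250*, the gene of Irgb10 (-0.36 ± 0.21), lay lower in both Tox RV libraries. *Gm5431* (-0.81 ± 0.44), *9930111J21Rik1* (-0.81 ± 0.39) and *9930111J21Rik2* (-0.58 ± 0.33) were raised in EV RV replicate 1 alone, and *9930111J21Rik1* was at 120 CPM there against 46.0 to 51.7 CPM in the other libraries. The giant GTPases *Gvin1* (-0.35 ± 0.18) and *Gm4070* (-0.37 ± 0.20) did not overlap, whereas *Irgq* (-0.30 ± 0.23) did and *Irgc1* was at most 0.40 CPM.

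**Figure D3:**
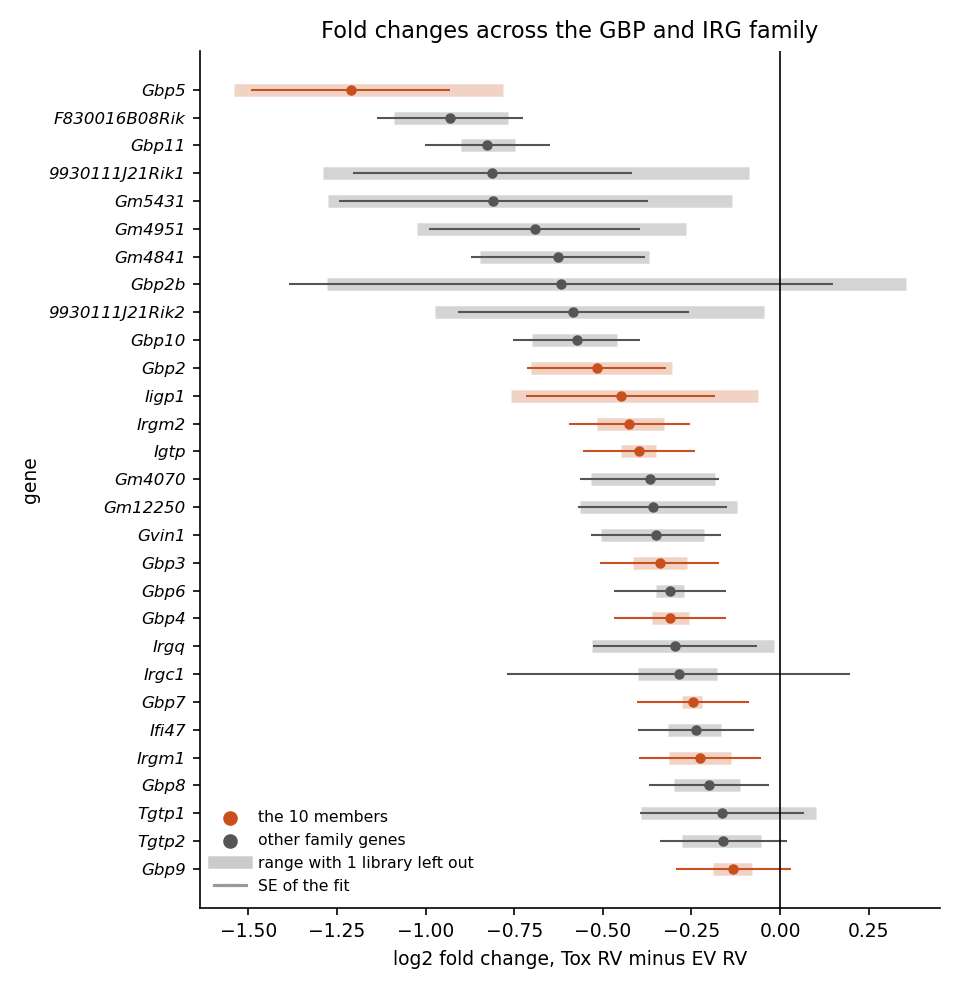
Log2 fold change of Tox RV minus EV RV (x axis) for the 10 members (orange) and 19 other family genes (grey), with the SE of the fit as a thin line and the range with 1 library left out as a wide band. All 29 points lie below 0, and of the members Gbp5 is lowest and Gbp9 nearest to 0.

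The upstream pathway was compared in the same libraries. *Ifng* itself, which encodes the cytokine, was at 10.9 and 107 CPM in EV RV and at 96.0 and 47.4 CPM in Tox RV. The groups overlapped widely, and EV RV replicate 1 had the least *Ifng*. Of the members, 4 were also lower in that library than in EV RV replicate 2 (*Gbp4*, *Igtp*, *Irgm1* and *Iigp1*) and 6 were higher. The log2 fold change was 0.29 ± 0.94. The ligand-binding chain *Ifngr1* was at 336 and 201 CPM in EV RV and at 174 and 162 CPM in Tox RV (-0.68 ± 0.27), and the signalling chain *Ifngr2* at 26.3 and 27.8 CPM in EV RV and 17.3 and 19.99 CPM in Tox RV (-0.54 ± 0.18). Both receptor genes lay lower in both Tox RV libraries, and neither passed the adjusted test (edgeR, adjusted p-value 0.897 for *Ifngr1*).

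Of the kinases, *Jak1* overlapped between groups (-0.23 ± 0.35) and *Jak2* was at 480 to 527 CPM throughout (0.005 ± 0.16). *Stat2*, a transcription factor of interferon signalling, was at 95.8 and 69.4 CPM in EV RV and at 49.5 and 48.4 CPM in Tox RV (-0.76 ± 0.21). *Irf1*, which activates GBP promoters, was at 394 and 377 CPM in EV RV and at 349 and 341 CPM in Tox RV. Its groups did not overlap, and the log2 fold change was about as large as its standard error (-0.16 ± 0.16). *Irf2* was high in EV RV replicate 1 alone (79.0 CPM, against 25.1 to 32.3), and the feedback inhibitor *Socs1* overlapped (-0.18 ± 0.23). Over the 15 signalling genes tested, 10 had a log2 fold change below 0, 6 did not overlap in this direction (17.4% of all genes) and 1, *Ptpn6*, in the other (18.6%). The median was -0.21, and it ranged from -0.31 without Tox RV replicate 1 to -0.15 without EV RV replicate 1. Scaled by library totals, it was -0.074. None of the 15 was called by edgeR or DESeq2.

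**Figure D4:**
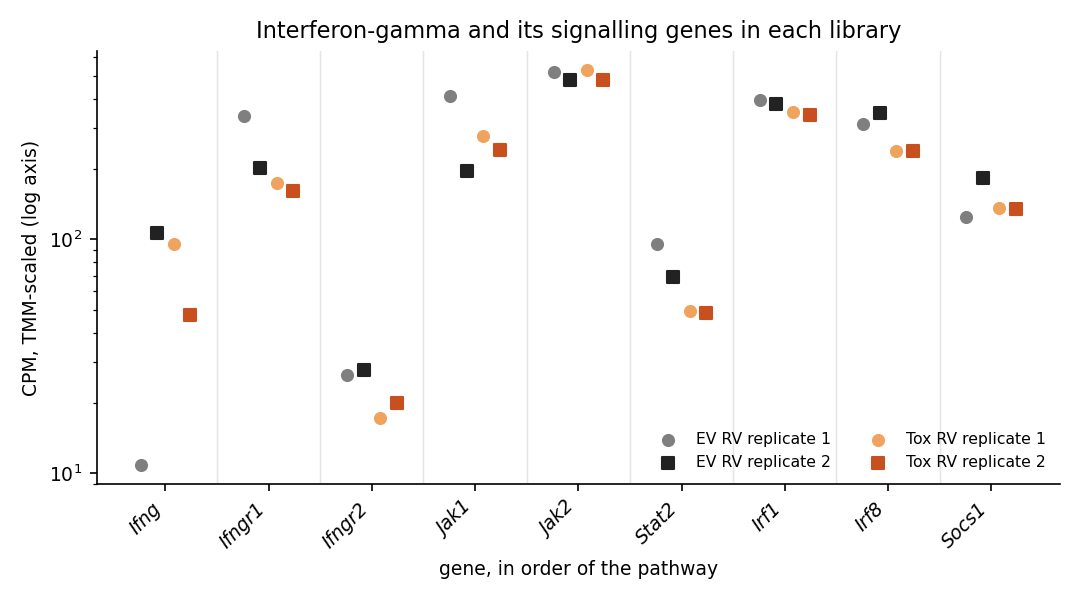
CPM (log axis) of Ifng and 8 genes of its signalling pathway in each of the 4 libraries, each point 1 library. Ifng is lowest in EV RV replicate 1, and both receptor genes are lower in Tox RV. Jak2 is close in all libraries, and Irf1 is slightly lower in both Tox RV libraries.

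Other targets of interferon-γ did not all share the direction of the GBPs and IRGs. Of 29 tested, 22 were below 0 and 7 above, 12 had both Tox RV libraries below EV RV (17.4% of all genes) and 0 above (18.6%), and the median was -0.13. That median was -0.086 without EV RV replicate 1 and -0.25 without EV RV replicate 2. Scaled by library totals, which shifts the median of all genes to 0.12, 15 of the 29 were below 0. The nucleic acid sensor *Zbp1* (-0.67 ± 0.27), the ADP-ribosyltransferase *Parp14* (-0.46 ± 0.17) and the MHC class I activator *Nlrc5* (-0.41 ± 0.20) had the largest differences among those with a mean of at least 10 CPM. The type I interferon list held induced genes and also the receptor genes *Ifnar1* and *Ifnar2* and the receptor kinase gene *Tyk2*. All 25 of its tested genes were below 0, with a median of -0.53. In 19 of the 25 both Tox RV libraries were below EV RV (17.4% of all genes), and in 0 both were above (18.6%). When EV RV replicate 1 was left out, 22 of 25 were below 0, with a median of -0.27. In this list *Irf7* (-0.86 ± 0.30), *Usp18* (-0.62 ± 0.21) and *Oas3* (-0.54 ± 0.20) led by the same rule. None of the genes in these lists was called by edgeR or DESeq2.

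Inducers of *Ifng* in Th1 cells had a median log2 fold change of -0.37 over 10 genes, or -0.25 without EV RV replicate 2. Of these, 8 were below 0 and 2 above (*Il12rb1* at 0.17 ± 0.20 and *Il27ra* at 0.14 ± 0.27). The groups overlapped in 6 of the 10, as they did in 9047 of all 14143 genes tested. In 4 they did not overlap and Tox RV was the lower group (17.4% of all genes). *Il12rb2*, the signalling chain of the interleukin-12 receptor, was at 442 and 247 CPM in EV RV and at 150 and 113 CPM in Tox RV (-1.39 ± 0.32), and was called by DESeq2 (adjusted p-value 0.011) but not by edgeR. *Il18r1* (-0.82 ± 0.29) did not overlap between groups, and *Runx3* (-0.63 ± 0.44) did.

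The last lists were of genes from processes linked to the GBP and IRG proteins. The 15 genes of ATG8 conjugation and GTPase loading had a median of 0.085, which was -0.025 without Tox RV replicate 1 and 0.20 when scaled by library totals, with *Atg3* at 0.48 ± 0.27, *Arhgdib* at 0.37 ± 0.16 and *Trim21* at 0.30 ± 0.17. Prenylation gives some GBPs a lipid anchor, but not all 7 genes on the prenylation list attach it. Their median was 0.13, which was 0.0028 without EV RV replicate 1 and 0.25 without EV RV replicate 2. *Rce1* was at 0.17 ± 0.19, *Rabggta* at -0.16 ± 0.17 and *Icmt* at 0.15 ± 0.18. The 9 inflammasome genes linked to GBPs had a median of 0.033, with *Casp4* at -0.23 ± 0.23, *Casp1* at 0.13 ± 0.29 and *Gsdmd* at 0.077 ± 0.17. The inflammasome median was 0.14 without EV RV replicate 1, -0.013 without EV RV replicate 2 and -0.060 without Tox RV replicate 1. None of the genes in these lists was called by edgeR or DESeq2.

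**Figure D5:**
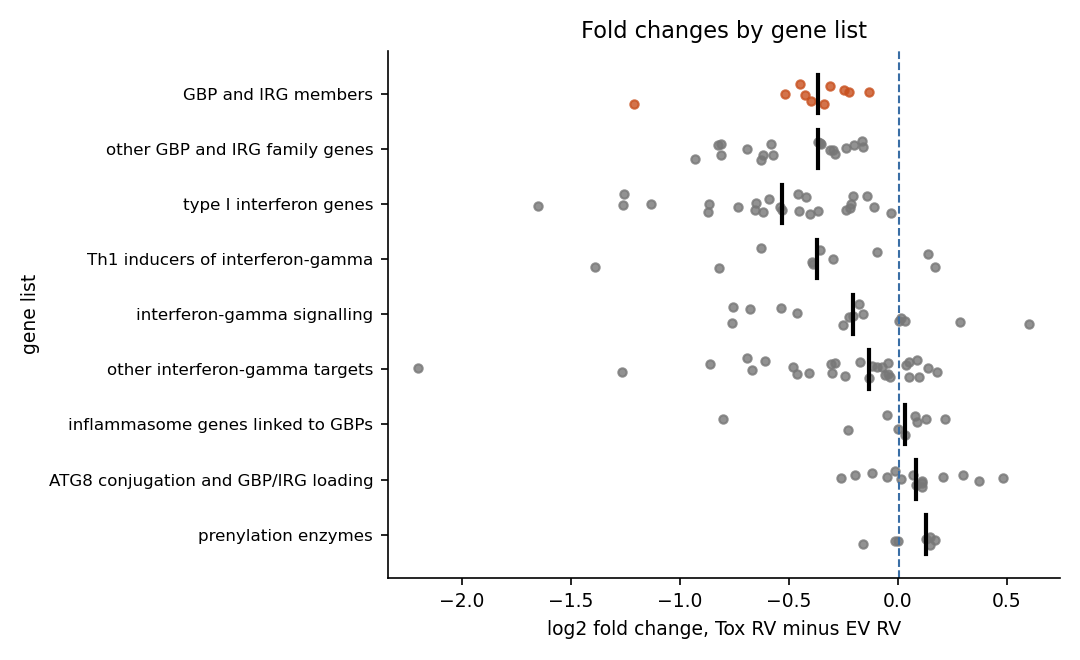
Log2 fold change of Tox RV minus EV RV (x axis) for the tested genes of 9 lists, each point 1 gene, with the list median as a black bar and the median of all genes as a dashed line. The members, the other family genes and the type I interferon genes lie wholly below 0, while the lists for loading, prenylation and inflammasomes lie around 0.

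Markers of other cells that make GBPs were compared as well. The summed CPM of 8 myeloid genes was 4.81 and 6.11 with the empty vector against 6.43 and 4.74 with Tox, and that of the B cell genes was 1.16 and 1.62 against 1.42 and 1.52. Both ranges overlapped. The summed CPM of CD8 T and NK cell genes was 56.6 and 16.5 against 32.9 and 11.3, with replicate 1 the higher in both groups. It was highest in EV RV replicate 1, with *Klrk1* at 36.6 and *Klrd1* at 14.2 CPM there. Of the members, *Gbp2*, *Gbp3*, *Gbp5*, *Gbp7*, *Gbp9* and *Irgm2* were higher in that library than in EV RV replicate 2, and *Gbp4*, *Igtp*, *Irgm1* and *Iigp1* were lower. The NK cell gene *Ncr1* and the B cell genes *Ms4a1* and *Pax5* were at 0 in every library, *Cd79a* and *Cd79b* reached 0.81 and 1.27 CPM, and among the myeloid genes *Lyz2* did not exceed 0.026 CPM and *Cd68* was at 3.06 to 4.28 CPM. The part of these markers in the values of the GBPs and IRGs was not tested.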

How the data were processed

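RNA-seq was analysed from 4 libraries of sorted CD4+ GFP+ T cells, 2 per group, with groups and replicate numbers taken from the sample labels. The authors aligned reads with bowtie to mm10 transcripts and ran RSEM on each library without pooling, and use of strand is not given in the sources used here. The deposited expected counts are RSEM's estimated counts per gene, not normalized, and the deposited TPM values are the authors' RSEM estimates of each transcript's share, corrected for length. A series-wide table named as TPM was not used, because its columns do not have the sum that TPM has.

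Expected counts were rounded and tested with edgeR 4.0.16 in R 4.3.3 (filterByExpr with a minimum count of 10, TMM, glmQLFit and glmQLFTest, Benjamini-Hochberg adjustment over 14143 genes). A gene was called at an adjusted p-value under 0.05 and a fold above 2. DESeq2 1.42.0, which the methods name, and limma 3.58.1 on log2(TPM + 1) and log2(TPM + 0.1) were alternatives, beside other scalings, no filter, a replicate block and leaving out each library. Depth was 46989997 to 74548723 expected counts per library. The fits were tested on simulated counts with known fold changes, drawn independently for each library from the fitted means and dispersions. No outlying library was simulated, so that check does not cover one. With 2 mice per group, p-values measure the spread between these mice only.

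The members and gene lists were chosen with earlier results of these data known. Named genes were the 10 members, other family genes with over 3 counts, core interferon-γ signalling genes, and from each other list the called genes and the 3 with the largest absolute log2 fold change at a mean CPM of at least 10. A gene that this rule names is not reported here. Other genes were named after their values were seen. Promoters were taken from a RefSeq table (GRCm38.p6).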

Additional observations from a re-analysis of the deposited data

How the results depend on the processing

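The direction of all 10 members was kept under every alternative run, and 20 of their 121 alternative values moved beyond their spread. Their median of -0.37 was -0.24 when libraries were scaled by their totals, where the median of all genes shifted to 0.12. With limma on log2(TPM + 1) and on log2(TPM + 0.1) the median of all genes shifted to -0.049 and -0.068. The median of the members was -0.45 in both. It ranged from -0.42 to -0.31 with 1 library left out and was -0.37 with the replicate block. Scaled by totals, *Gbp9* was at -0.0091. At that scaling 6 members had both Tox RV libraries below both EV RV libraries. The share of all genes in that position was not computed there, so nothing is read from this count. Leaving out EV RV replicate 1 gave a count of 10 (33.5% of all genes) and leaving out EV RV replicate 2 a count of 9 (41.7%), alternatives chosen after the data were seen. The number of genes called across the data was 0 in edgeR and 22 in DESeq2. It was 22 with no filter on low counts and 16 with the replicate block. With 1 library left out it ranged from 1 without EV RV replicate 1 to 322 without EV RV replicate 2. It was 12 without Tox RV replicate 1 and 23 without Tox RV replicate 2. Each of these fits leaves 1 library in a group, so nothing is read from their calls. Without EV RV replicate 2 the control was EV RV replicate 1 alone, the library that stood apart on the first principal component. The log2 fold change of *Gbp5* was -1.54 there and -0.78 without EV RV replicate 1. Same-numbered libraries were not stated to share an animal or day, and their deviations correlated at 0.377 over only 2 pairs. CD8 T and NK cell genes were higher in replicate 1 by a median log2 difference of 1.80 in EV RV and 1.82 in Tox RV. *Cd8a* went the other way in both groups. The main fit did not pair the libraries by number, and whether they are pairs was not tested. The cause of these changes was not tested.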
